A study of Mus musculus with 15 samples.

Results

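The TIM genes encode receptors with a T cell immunoglobulin and mucin domain. Timd2, Havcr1, Havcr2 and Timd4 were measured in liver tumors by every probe that the array files annotate to one of them, that is 4 of 23954 gene symbols and 6 of 55681 non-control probes. The 4 genes stand in 1 stretch of chromosome 11, where 362.6 kb separate the Havcr2 probe from the Timd4 probe on mm9. Timd2 and Havcr1 had 2 probes each, which are named here by the position in the transcript that the array files give, and Havcr2 and Timd4 had 1 each. Timd2 was chosen by its fall in HCC of p53LKO mice, where the fitted fall of 1 of its probes is the largest among probes with a gene symbol. That fitted value is set against arrays at background, so only a bound of the fall was measured. The data go against reading that fall as one of the gene, because the other Timd2 probe did not share it, so the values are given by probe.

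Hepatocellular carcinoma (HCC) was induced with carbon tetrachloride (CCl4), a hepatotoxin given intraperitoneally in olive oil at 0.5 µl per g body weight over 16 weeks from 6 weeks of age. The 3 groups of 5 arrays each were HCC of p53f/f mice, which carry floxed Trp53 and served as controls, HCC of p53LKO mice, in which Trp53 was deleted in the liver, and ICC of p53LKO mice, the usual abbreviation of intrahepatic cholangiocarcinoma. All mice had a C57/BL6J background and received CCl4, and each array carried RNA of whole tumor tissue, so tumor cells were not separated from immune, vascular or remaining liver cells. The p53f/f HCC came from 4 mice, since mouse 3717 gave 2 tumors, and 4 p53LKO mice (3731, 3733, 3976 and 5283) gave both an HCC and an ICC. By the study's description the HCC of the arrays came from male mice. It does not give the sex for the ICC arrays, and mouse 3977 gave an ICC array only. The study collected mice at 24 and 36 weeks of age and followed p53f/f mice for tumors up to 90 weeks. Which age each tumor of the arrays had, and the driver of the Cre recombinase, are not given in the sources used here, so age and genotype cannot be told apart.

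TIM receptors sit at the cell surface and carry an immunoglobulin variable domain above a mucin stalk. TIM-1 (Havcr1), TIM-3 (Havcr2) and TIM-4 (Timd4) bind phosphatidylserine, the lipid that dying cells expose, while TIM-2 (Timd2), which mice have and humans lack, takes up heavy-chain ferritin and binds semaphorin 4A. In the liver, TIM-4 is known as a marker of resident Kupffer cells, TIM-2 has been described on B cells and in bile duct epithelium, TIM-1 is best known as an injury marker of the kidney and a costimulatory molecule of lymphocytes, and TIM-3 as an inhibitory receptor of T cells and myeloid cells.

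The sequences of the probes are shown first, because the results turn on pairs of probes of the same gene that gave different readings. The Havcr1 probes are given whole, with the last triplet of the second one in capitals, which is the only stop triplet of the reading frame that ends there. Of the Timd2 and Havcr2 probes 30 bases are given, with the hexamer AATAAA, the usual signal for polyadenylation, in capitals where a probe holds it.
Havcr1 434, chr11:46569677-46569736 on mm9, plus strand: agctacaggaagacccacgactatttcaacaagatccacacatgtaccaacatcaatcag
Havcr1 959, chr11:46592056-46592115 on mm9, plus strand: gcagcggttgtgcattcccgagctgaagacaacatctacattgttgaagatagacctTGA
Timd2 1997, chr11:46483573-46483602 on mm9, minus strand: aggtgtgacagtatttgggactatctactt
Timd2 3024, chr11:46482543-46482572 on mm9, minus strand: actccagtgtaaAATAAAgagaccctaagg
Havcr2 2642, chr11:46294705-46294734 on mm9, plus strand: aatgttttaaagtAATAAAactgtactggc

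The Timd2 probes lie 1.027 kb apart on the same strand, and the files list the same 3 RefSeq transcripts for both. The probe at 3024 holds AATAAA once and the probe at 1997 does not, and among all 55681 probes of 60 bases 10.1% hold it on the probe's strand and 13.5% on either strand. The Havcr1 probe at 959 is listed under 3 RefSeq transcripts, while the probe at 434 is listed under 1 cDNA entry of TIM1 from the BALB/c strain and under 0 RefSeq transcripts, although the files place it on mm9. The longest stretch that any pair of the 6 probes shared, on either strand, was 8 bases. The Timd4 probe stands at chr11:46657173-46657232 on the plus strand of mm9.

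A level is given on the log2 scale relative to the 75th percentile of its array (processed signal), and a probe is above background where the scanner software calls it well above background. Across the series, 55.1% to 70.1% of the probes passed that call in p53f/f HCC and 42.5% to 47.0% in ICC. Of the p53LKO HCC arrays, those of mice 3976 and 5283 lay in the lower row of their slide, like all ICC arrays, and had 46.4% and 37.0%, against 61.0% to 62.1% on the other 3, which lay in an upper row like all p53f/f arrays. Row and group are therefore partly confounded. The single probe annotated to Trp53, which the files place on chromosome 17 of mm9, stood at -1.27 to -0.68 in p53f/f HCC, at -3.86 to -2.75 in p53LKO HCC and at -4.19 to -2.31 in ICC. Which locus this probe reads was not checked, so its levels are not taken as a test of the deletion.

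The first comparison asked what differs in HCC that lacks p53. In HCC of p53LKO mice against HCC of p53f/f mice, the Timd2 signal read at 3024 fell to background, while that read at 1997 differed by less than the spread between tumors. The probe at 3024 had levels of -1.40, 0.73, 0.22, -1.25 and -0.72 in p53f/f HCC, processed signals of 80.6 to 482.8, and was well above background on 5 of 5 arrays. In p53LKO HCC it stood at -5.32, -4.24, -7.23, -6.98 and -7.03, with signals of 2.60 to 20.4, and was above background on 0 of 5 arrays. Every p53LKO tumor lay below the lowest p53f/f tumor, and the 2 arrays of the lower row were the highest of their group. Because the low group was not well above background, its size is a bound. The probe was at least 11.7-fold lower in p53LKO HCC, measured against the lowest signal that was still above background on each array. Against the 3 p53LKO HCC of the upper row alone it was at least 22.1-fold lower. The fitted difference was -5.68 on the log2 scale (SE 0.63), and -2.29 where the background was corrected with normexp. Without that correction it was -4.35 within slide 1, with 2 p53LKO against 4 p53f/f arrays, -6.37 within slide 2, with 3 against 1, and -6.60 within the upper row, with 3 against 5. These values chose the gene and are a description without a test.

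The Timd2 probe at 1997, the brighter one, was above background on all 15 arrays. Its levels were 2.51, 2.79, 2.65, 1.34 and 2.0 in p53f/f HCC (mean 2.26 ± 0.59, SD, n = 5). In p53LKO HCC they were 1.51, 1.33, 2.16, 3.20 and 2.67 (mean 2.17 ± 0.78, SD, n = 5). The groups overlapped almost entirely, and the difference was -0.09 (SE 0.39, 95% interval -0.96 to 0.78), or 0.65 where arrays were scaled to spike-in probes. It was -0.91 within slide 1, 0.67 within slide 2 and 0.42 within the upper row. The probe at 3024 thus lay lower without overlap in p53LKO HCC, and the probe at 1997 did not. The mean of both probes would give -2.88.

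The rule that chose Timd2 counts probes with a gene symbol and orders them by the fitted fall. Next to the Timd2 probe at 3024 in that order stood Gm20867 with -4.99, Sly, a multicopy gene of the Y chromosome, with -4.75 and 5430431A17Rik with -4.70 (fitted log2 differences). Gm20867 and Sly were above background on 1 of 5 p53LKO HCC arrays and 5430431A17Rik on 5 of 5, so most of these sizes also rest on arrays at background and the order is not one of measured falls. A probe was called when its adjusted p was under 0.05 with more than a 2-fold change. Of the 36082 probes tested between the HCC groups 16.0% were called lower in p53LKO HCC, 3.64% were called higher, and 16.4% lay lower without overlap. The share of calls that were higher was 18.5%, and it was 29.3% after quantile normalization, 7.34% with the percentile taken over probes detected everywhere, and 80.9% with spike-in scaling. Of the 6 TIM probes 5 passed the filter on dim probes in this comparison, and the Timd2 probe at 3024 was the only one of them that lay lower without overlap.

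**Figure D1:**
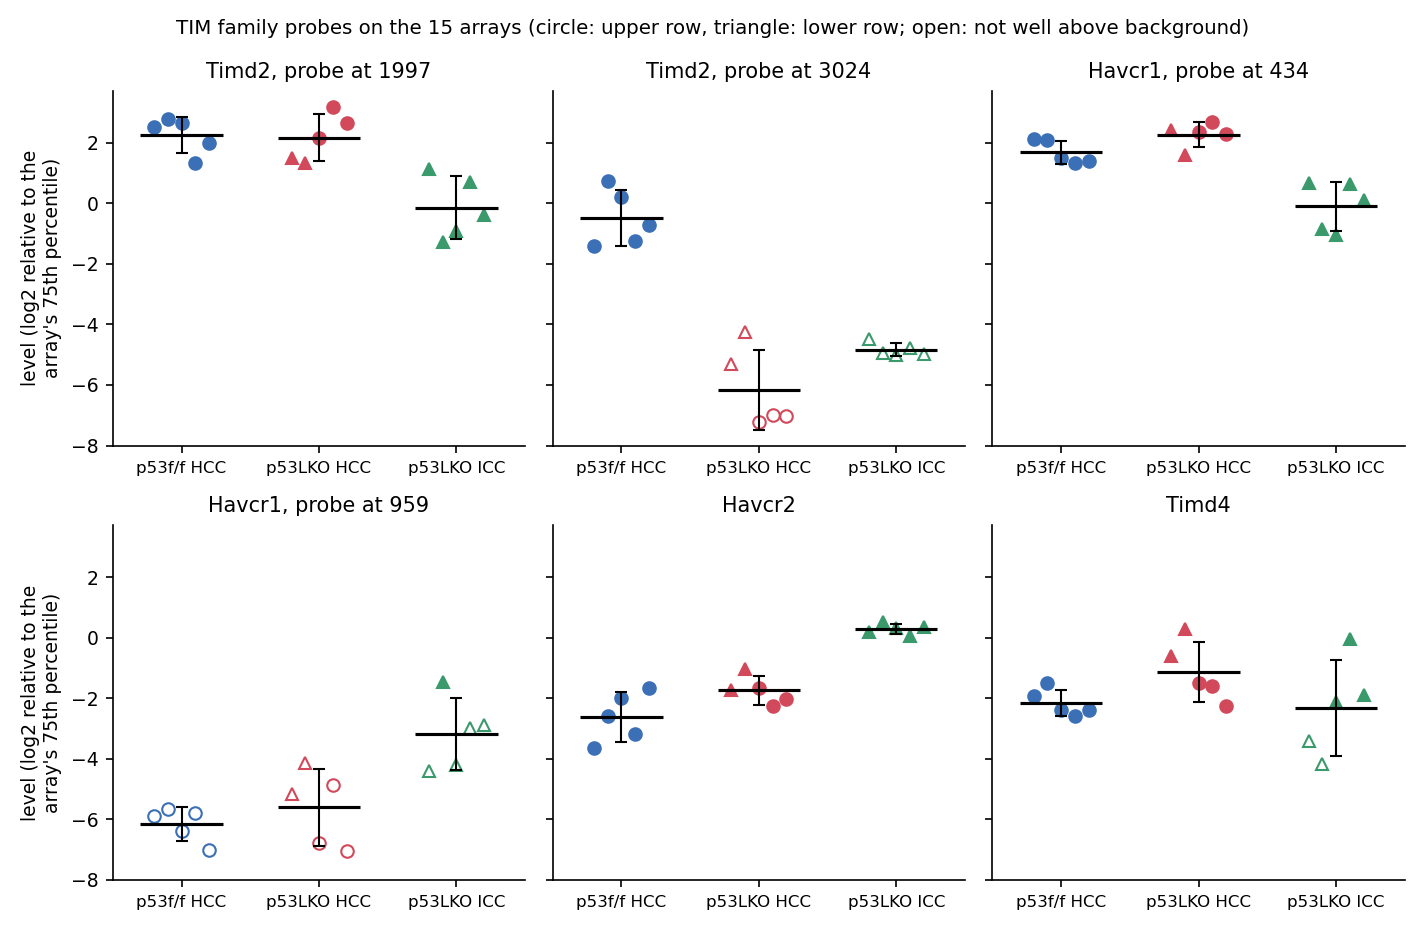
Level of each TIM family probe on the 15 arrays, on the log2 scale with the 75th percentile of the array at 0, by group (1 symbol per tumor, bar: mean, whisker: SD, n = 5). Circles are arrays of an upper row and triangles of a lower row, and open symbols were not well above background. The Timd2 probe at 3024 is filled on the 5 p53f/f arrays only, while the probe at 1997 is filled on all 15.

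The other TIM genes stood higher on average in p53LKO HCC than in p53f/f HCC, with overlapping groups. For Havcr1 the probe at 434 differed by 0.58 (SE 0.25), with 4 of 5 p53LKO tumors above every p53f/f tumor, and 0.76 within the upper row. For Havcr2 the difference was 0.87 (SE 0.38), with 1 of 5 above, and within slide 2 it was -0.33. For Timd4 it was 1.03 (SE 0.43), with 3 of 5 above, and within the upper row it was 0.38. As these values belong to the comparison that the choice of Timd2 used, they too are given without a test.

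The second question was whether the family differs between the 2 tumor types of the p53LKO mice. ICC against HCC of p53LKO mice was not used to choose Havcr1, Havcr2 and Timd4, which were tested, while Timd2 was not tested because its p53LKO HCC arrays served the choice. In ICC, Havcr1 and the Timd2 transcript read at 1997 were lower, Havcr2 was higher, and Timd4 varied too much between tumors to pass the test over all 10 arrays. Of the 32669 probes tested in this comparison 12.9% were called higher in ICC and 13.4% lower. The share of calls that were higher was 49.0%, and 73.5% or 63.0% with the 75th percentile or the median taken over probes detected everywhere. Groups without overlap made up 9.98% of them with ICC higher and 18.6% with ICC lower.

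Havcr2, the gene of TIM-3, was higher in every ICC than in every HCC. Its levels were 0.19, 0.51, 0.31, 0.05 and 0.36 in ICC (mean 0.28 ± 0.17, SD, n = 5). In HCC of p53LKO mice they were -1.73, -1.02, -1.67, -2.27 and -2.03 (mean -1.74 ± 0.47, SD, n = 5). In HCC of p53f/f mice they were -3.65, -2.59, -1.99, -3.18 and -1.66 (mean -2.61 ± 0.82, SD, n = 5), and the 2 HCC groups overlapped. The ICC values were the closest together of the 3 groups. ICC exceeded p53LKO HCC by 2.03 on the log2 scale (SE 0.23, 4.08-fold, limma adjusted p = 0.000125). An exact 2-sided permutation test over all choices of 5 of the 10 arrays gave p = 0.00794, the smallest p that such a test allows. This permutation test took no account of the mice that gave both tumors or of the row. The difference was 1.56 within slide 1, with 1 ICC against 2 HCC, 2.30 within slide 2, with 4 against 3, and 1.66 within the lower row, with 5 against 2.

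Havcr1, the gene of TIM-1, went the other way at the probe at 434. In ICC its levels were 0.69, -0.86, -1.03, 0.64 and 0.12 (mean -0.09 ± 0.81, SD, n = 5). In HCC of p53LKO mice they were 2.43, 1.59, 2.37, 2.70 and 2.30 (mean 2.28 ± 0.41, SD, n = 5). In HCC of p53f/f mice they were 2.11, 2.08, 1.51, 1.34 and 1.41 (mean 1.69 ± 0.38, SD, n = 5). All ICC lay below all HCC of either genotype. ICC was lower than p53LKO HCC by 2.37 on the log2 scale (5.15-fold, SE 0.37, limma adjusted p = 0.000702, exact permutation p = 0.00794). The difference was -1.32 within slide 1, -2.74 within slide 2 and -2.10 within the lower row.

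The Havcr1 probe at 959 was at the limit of detection. It was above background on 1 of 15 arrays, the ICC of mouse 3733, with a processed signal of 123.7, and on the other 14 arrays its signal was 2.28 to 54.3. The probe at 434 stood at -0.86 in the same ICC, the second lowest of its 15 levels. The probe at 959 was too dim to be tested, and the mean of both Havcr1 probes gave a difference of 0.022 between ICC and HCC in place of -2.37. The fall of Havcr1 in ICC therefore rests on the probe that the files list only under the BALB/c cDNA.

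For Timd2 the probe at 1997 stood at 1.15, -1.29, -0.91, 0.69 and -0.37 in ICC (mean -0.15 ± 1.04, SD, n = 5). All ICC lay below all HCC, with a log2 difference of -2.32 from p53LKO HCC (SE 0.51) and of -2.41 from p53f/f HCC (SE 0.47). The spread within ICC was the largest of the 3 groups, and the difference from p53LKO HCC was -0.27 within slide 1, -3.15 within slide 2 and -1.57 within the lower row. The probe at 3024 was above background on 0 of 5 ICC arrays, with signals of 11.02 to 17.4, and was at least 4.71-fold lower than in p53f/f HCC. Between the p53LKO tumor types it gave no comparison, since both groups were at background. Timd2 read at 3024 was thus above background in p53f/f HCC alone, and read at 1997 in all 3 groups.

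Timd4, the gene of the Kupffer cell receptor TIM-4, had the widest spread of the 4 genes within both p53LKO groups, among the brighter probes. In p53LKO HCC its levels were -0.61, 0.30, -1.49, -1.60 and -2.26 (mean -1.13 ± 0.99, SD, n = 5), in the order of mice 3976, 5283, 3731, 3733 and 3975. In ICC they were -3.41, -4.18, -2.14, -0.03 and -1.88 (mean -2.33 ± 1.59, SD, n = 5), in the order of mice 3731, 3733, 3976, 3977 and 5283. In p53f/f HCC they lay between -2.60 and -1.51 (mean -2.16 ± 0.44, SD, n = 5). The ICC of 3731 and 3733 were not well above background, and the ICC of mouse 3977 was higher than every HCC except that of mouse 5283. ICC differed from p53LKO HCC by -1.20 (SE 0.73, 95% interval -2.80 to 0.40, limma adjusted p = 0.200, exact permutation p = 0.198). Within slide 1 the difference was -3.26, within slide 2 it was -0.28, and within the lower row it was -2.18. Against the 3 HCC of the upper row alone, an alternative chosen after the data were seen, it was -0.55.

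Timd4 was also read within mice. In mice 3731 and 3733 the HCC lay in an upper row and the ICC in a lower row, so row and tumor type change together there. In mice 3976 and 5283 both tumors lay in a lower row. In each of the 4 mice that gave both tumors the ICC had less Timd4 than the HCC, with log2 differences of -2.59 to -1.54 (mean -2.06 ± 0.44, SD, n = 4 mice). In mice 3731 and 3733 the ICC was not well above background, so their differences of -1.92 and -2.59 are not measured sizes, and with the ICC at the lowest signal above background they were -0.88 and -1.21. A fit with the mouse as a fixed factor, a paired comparison that rests on these 4 mice, gave -2.06 (SE 0.24, limma adjusted p = 0.00755) and called Timd4 lower, where this fit called 12.1% of the probes lower. With the dim TIM values at that floor, an alternative added after the data were seen, the paired difference was -1.45 (limma adjusted p = 0.0173), and without pairing it was -0.71 (limma adjusted p = 0.329). With the mouse as a random block the difference was -1.23 and the adjusted p 0.178. The ICC of mouse 3977, for which there is no HCC array, moved the unpaired result, since without it the difference was -1.77 with a limma adjusted p of 0.0374. Havcr2 was higher in the ICC of 4 of 4 mice, by 1.38 to 2.78. Havcr1 at 434 was lower in 4 of 4, with differences of -3.55 to -1.47, and Timd2 at 1997 in 4 of 4, with -4.48 to -1.01.

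**Figure D2:**
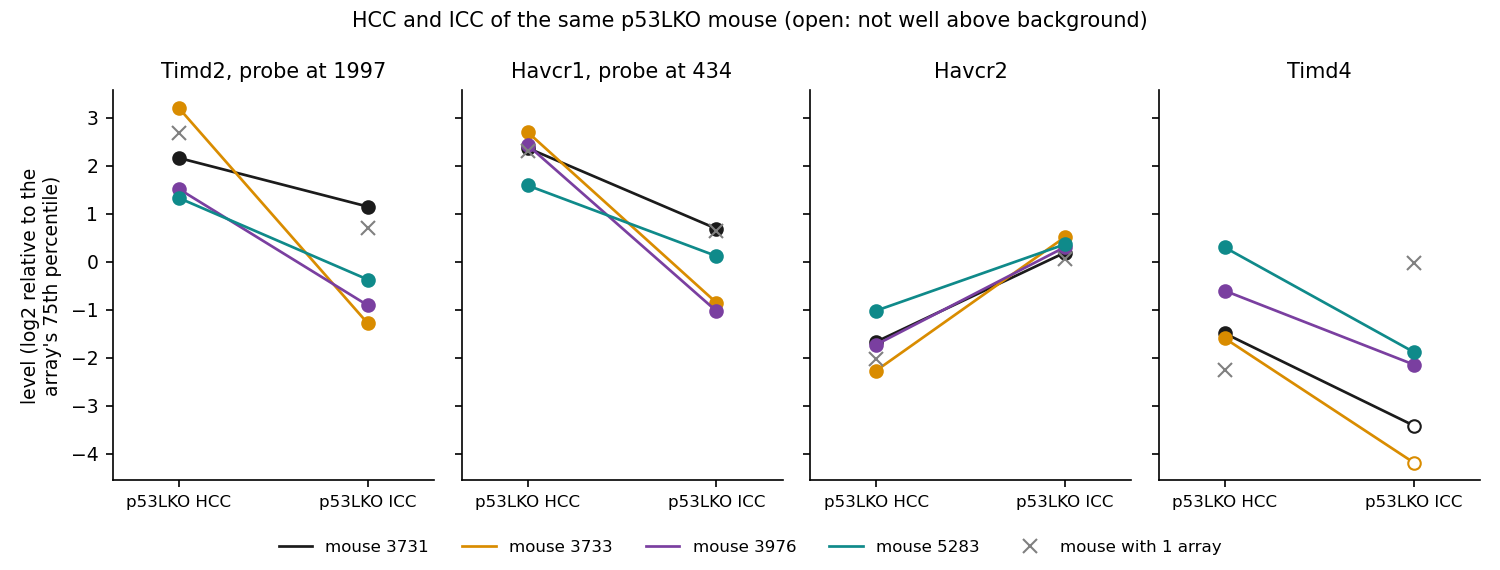
Levels in HCC and ICC of the same p53LKO mouse for the brighter probe of each gene (vertical axis, log2 with the 75th percentile of the array at 0, 1 line per mouse, 4 mice, crosses: mice with 1 array, open: not well above background). Every line falls for Timd2, Havcr1 and Timd4 and rises for Havcr2, and the cross at -0.03 for Timd4 is the ICC of mouse 3977.

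ICC of p53LKO against HCC of p53f/f mice completes the order of the groups, but tumor type, genotype and array row change together there and cannot be told apart. Havcr2 was higher in ICC by 2.90 (SE 0.34, 7.45-fold, limma adjusted p = 0.000251). Havcr1 at 434 was lower by 1.78 on the log2 scale (SE 0.37, 3.44-fold, limma adjusted p = 0.00454). Timd4 differed by -0.17 (SE 0.64, 95% interval -1.58 to 1.25, limma adjusted p = 0.856). Of the 35698 probes tested here 7.43% were called higher and 12.0% lower. Groups without overlap made up 8.97% of them with ICC higher and 15.3% with ICC lower. The share of calls that were higher was 38.2%, and it was 48.5% with the percentile taken over probes detected everywhere and 88.7% with spike-in scaling. Within slide 1 the Havcr2 difference was 3.04 and that of Havcr1 -1.08, with 1 ICC against 4 HCC, and within slide 2 they were 1.97 and -1.69, with 4 against 1. With the slide as a block the Havcr1 call was lost (-1.38, limma adjusted p = 0.0639), as it was with spike-in scaling (-1.03, limma adjusted p = 0.0626). Havcr2 thus ran from p53f/f HCC over p53LKO HCC to ICC, with neighbours overlapping only between the HCC groups, and Havcr1 and Timd2 at 1997 were lowest in ICC.

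The levels of Timd2 and Havcr1 followed each other over the tumors. Between the probe at 1997 and the Havcr1 probe at 434, Pearson's r was 0.925 over the 15 arrays, where Timd2 ranked 53 among 17762 genes for Havcr1, and 0.837 after the group means were taken away. Havcr2 had r of -0.807 with Timd2 and -0.788 with Havcr1 over the 15 arrays, and -0.298 and -0.460 within groups. The 5 genes closest to Timd2 at 1997 were Qdpr, which recycles tetrahydrobiopterin, Glrx5, which serves iron-sulfur cluster assembly in mitochondria, Zfp385b, the drug exporter gene Slc47a1 and Gldc, a subunit of the glycine cleavage system, with r of 0.946 to 0.958. Havcr1 was closest to Agpat2, an enzyme of phospholipid and triglyceride synthesis, to Gldc and to Ndufaf6, an assembly factor of respiratory complex I, with r of 0.957 to 0.958. No correlation is given for the Timd2 probe at 3024, which was at background on 10 of 15 arrays. These correlations describe 15 arrays that share slides, rows and groups, and they carry no test.

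Markers of the parenchyma moved with these genes. Of 11 hepatocyte markers, 0 were called higher and 7 lower in ICC than in HCC of p53LKO mice, with a median difference of -1.66. The largest changes were those of Apoa1 (-2.76), Fabp1 (-2.19), Hnf4a (-2.03) and Alb (-1.91). The list's summed level, as log2, was 11.3 to 11.7 in p53LKO HCC and 9.41 to 10.8 in ICC, and each of the 11 was above background on an array of every group. Alb, the albumin gene, had r of 0.898 with Timd2 at 1997 and 0.831 with Havcr1 at 434 over the 15 arrays, and 0.696 and 0.641 within groups. The part of hepatocyte content in the lower Timd2 and Havcr1 of ICC was not tested, and in whole tumor tissue fewer cells of a type and less RNA per cell cannot be told apart. Among all genes, 1 probe per gene symbol, 13.1% of 16730 were called higher and 15.3% lower, with a median of -0.18.

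Biliary markers were higher in ICC, the tumors labelled as cholangiocarcinoma. Of 10 markers 8 were tested, and 4 were called higher and 0 lower. Epcam was at least 78.2-fold higher than in p53LKO HCC, where it was above background on 0 of 5 arrays, followed by Spp1 (4.73), Krt19 (4.67) and Krt7 (2.70, log2 differences). Muc1 was above background on no ICC array. The list's summed level was 2.48 to 3.41 in p53LKO HCC and 6.07 to 7.17 in ICC. Over the 15 arrays Havcr2 had r of 0.909 with the mean of the list, and 0.790 within groups. Of 8 genes known for epithelial injury, among which Havcr1 is often counted in the kidney, 4 were called higher in ICC than in p53LKO HCC and 3 lower. Those called with the largest changes were Lcn2 (-2.76), Krt20 (2.61), Gdf15 (-2.54) and Cd44 (1.96). In p53LKO HCC against p53f/f HCC 1 of the 8 was called higher, Lcn2 (1.34), and 0 lower, beside 5.22% and 10.6% of all genes. In ICC against p53f/f HCC 4 were called higher and 3 lower, beside 10.9% and 11.9%.

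Genes of the cells that are known to carry TIM-3 were read beside it, where 13.1% of all genes were called higher in ICC than in p53LKO HCC and 15.3% lower. Of 16 tested macrophage genes 1 was called higher in ICC than in p53LKO HCC, Lyz2 (2.99), and 2 lower, the iron exporter gene Slc40a1 (-2.26) and Nr1h3 (-1.65), with a median of 0.16. Of 11 tested T cell genes 5 were called higher and 1 lower, led by Tox (4.11), a factor of T cell exhaustion, Cd4 (-2.76), Pdcd1 (2.30), which encodes PD-1, and Cd3d (2.08). Other probes of Cd4 gave as little as -0.22. Cd8a, of the same list, was above background on 3 of 5 p53LKO HCC and 5 of 5 p53f/f HCC arrays and on no ICC array. It was not called, and no size of its difference can be given. Of 6 tested dendritic cell genes 2 were called higher, Itgax (2.11) and Clec9a (1.91), and 0 lower. Of 5 tested natural killer cell genes 0 were called in either direction by limma, and of 7 tested B cell genes 2 were called higher, with Ms4a1 (1.81) the larger change, and 0 lower. In ICC against p53f/f HCC 6 macrophage genes were called higher and 2 lower, 5 T cell genes higher and 1 lower, and 3 dendritic cell genes higher and 1 lower, beside 10.9% and 11.9% of all genes. There 0 of 4 tested natural killer cell genes were called by limma, and of 8 B cell genes 1 was called higher and 0 lower. Between the HCC groups, where 5.22% of all genes were called higher and 10.6% lower, 0 of 16 macrophage and 0 of 11 T cell genes were called by limma. Of 6 dendritic cell genes 1 was called lower, Flt3 (-1.79, with another probe at 0.15), and of 5 natural killer cell genes 1 higher, Klrb1c, at least 1.15-fold against p53f/f arrays at background. Of 8 B cell genes 1 was called higher, Bcl6 (1.49), and 2 lower, Cd22 (-1.68) and Pax5, at least 2.14-fold against p53LKO arrays at background.

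The summed levels of the macrophage list were 6.88 to 7.82 in p53f/f HCC, 7.30 to 8.25 in p53LKO HCC and 7.18 to 8.04 in ICC, and those of the T cell list 4.45 to 7.30, 4.97 to 6.66 and 3.81 to 4.49. The sum weighs bright genes most, and Cd4, which was lower in ICC, is part of it. The mean level of the T cell list was not lower in ICC, with -1.96 to -0.29 in p53f/f HCC, -2.06 to -0.62 in p53LKO HCC and -0.92 to -0.04 in ICC. Cd163, Ctla4, Ncr1 and Xcr1, markers of macrophages, T cells, natural killer cells and dendritic cells, were above background on 0 of 15 arrays. Havcr2 had r of 0.870 with C1qa, a complement gene of macrophages, and 0.280 with the mean of the macrophage list over the 15 arrays (0.542 and 0.342 within groups). Its closest genes were Clic1, a chloride channel gene, Alox5ap, which serves leukotriene synthesis in myeloid cells, and Sipa1l3, with r of 0.968 to 0.977. The part of immune cell content in the higher Havcr2 of ICC was not tested.

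Timd4 correlated with some genes of resident Kupffer cells over the tumors. Of these, Clec4f, Marco, Vsig4 and Cd5l were named after their values were seen. The 2 lowest Timd4 levels, those of the ICC of mice 3731 and 3733, were not well above background. The r of Timd4 with the mean of the macrophage list was 0.660 (0.743 within groups), and with that of the hepatocyte list 0.484 (0.596 within groups). The gene closest to Timd4 over the 15 arrays was Fcna, which encodes the lectin ficolin A, with r of 0.849 (0.841 within groups), before Slc25a34 with 0.783 and the cytochrome P450 gene Cyp2c44 with 0.780. Its r with Clec4f, a lectin of Kupffer cells, was 0.742, with the scavenger receptor gene Marco 0.722, with Vsig4, a complement receptor, 0.71 and with Cd5l 0.669, and within groups these were 0.822, 0.843, 0.877 and 0.795. With C1qa and Adgre1, which all macrophages express, it was -0.029 and -0.037. Clec4f, Vsig4, Cd5l and Marco were not called between any of the groups by limma, and like Timd4 they spanned several log2 units within ICC, from -0.98 to 3.86 for Clec4f and from -0.24 to 3.82 for Vsig4. The ICC of mice 3731 and 3733, lowest in Timd4, were the lowest ICC for Clec4f, Vsig4 and Fcna, and the ICC of 3977 was the highest. For Marco the ICC of 3733 was the lowest at -1.17, while that of 3731 stood at 0.17, the second highest of the 5.

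**Figure D3:**
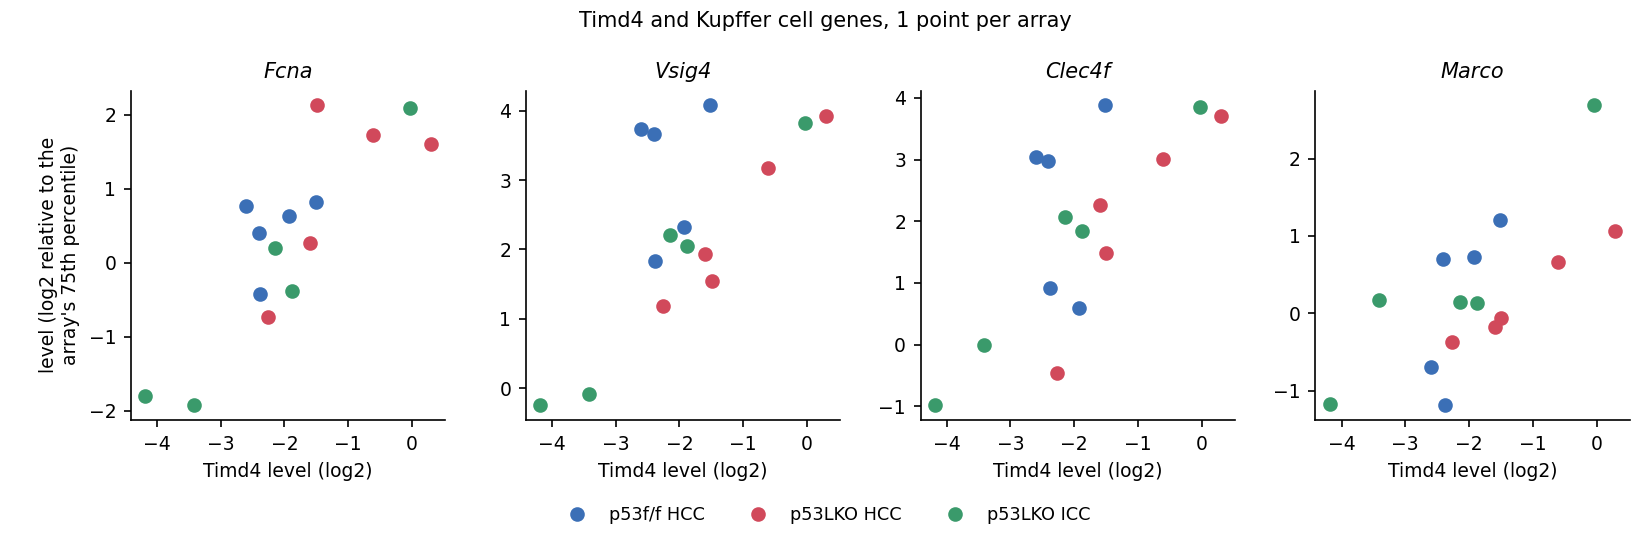
Timd4 level (horizontal axis) and the level of 4 Kupffer cell genes (vertical axis) on the 15 arrays, both on the log2 scale with the 75th percentile of the array at 0, with 1 point per array. The points of ICC span most of the range, and r is 0.849 for Fcna, 0.71 for Vsig4, 0.742 for Clec4f and 0.722 for Marco. Fcna had the highest r with Timd4 of all genes compared, and Cd5l, with r of 0.669, is not drawn. The 2 lowest Timd4 levels were not well above background.

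Ferritin concerns Timd2 as a receptor of its heavy chain. Of the ferritin genes the list holds Fth1, Ftl1 and Ftmt, and ferritin heavy-chain-like genes are not in it. In p53LKO HCC against p53f/f HCC the difference was 0.34 for Fth1, the heavy chain itself (SE 0.21, limma adjusted p = 0.230), and -0.20 for the light chain Ftl1, of which another probe was at 0.95. Ncoa4, which delivers ferritin to the lysosome, differed by 0.08. Tfrc, the transferrin receptor, was called higher (1.49, SE 0.27, limma adjusted p = 0.00217), and Scara5, which takes up ferritin, was called lower (-2.28, SE 0.62, limma adjusted p = 0.0175). Of 5 tested genes of this list 1 was thus called higher and 1 lower, where 5.22% of 17583 genes with 1 probe each were called higher and 10.6% lower. Ftmt, the mitochondrial ferritin, was too dim.

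In ICC against p53LKO HCC 1 of 5 was called higher and 1 lower, beside 13.1% and 15.3% of all genes. Tfrc was lower (-1.16, limma adjusted p = 0.0124) and Scara5 higher (1.90, limma adjusted p = 0.0190), while Fth1 was lower by 0.82 on the log2 scale (limma adjusted p = 0.00163), short of the fold threshold, although all ICC lay below all HCC. In ICC against p53f/f HCC 0 of 5 were called, where 10.9% of 17515 genes were called higher and 11.9% lower. Since these comparisons share arrays, their directions are given side by side only.

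The ligands and partners of the TIM proteins were read next. Of 9 tested genes 0 were called higher in p53LKO HCC than in p53f/f HCC and 1 lower, where 5.22% of all genes were called higher and 10.6% lower. The 1 called was Selp, which encodes P-selectin, a partner of TIM-1 (-1.18, SE 0.19, limma adjusted p = 0.000926). Sema4a, a ligand of TIM-2, differed by -0.19 and Lgals9, which encodes the TIM-3 ligand galectin-9, by 0.05. In ICC against p53LKO HCC Lgals9 was called lower (-1.52, SE 0.28, limma adjusted p = 0.00167), with no overlap between the groups. Havcr2 and the gene of its ligand thus stood in opposite directions in ICC. In ICC against p53f/f HCC Lck, a kinase of T cell signalling, was called higher (1.22) and Lgals9 lower (-1.47). For Hmgb1 and Bag6, both known to bind TIM-3, the difference of ICC from p53LKO HCC was 0.30 and -0.40, and Fyn was at 0.34. Sele was above background on 0 of 15 arrays, and no probe carries the symbol Ceacam1.

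Among other receptors of phosphatidylserine and genes of engulfment, 3 of 19 tested were called higher and 3 lower in p53LKO HCC against p53f/f HCC, beside 5.22% and 10.6% of all genes, with a median of 0.02 beside 0.07 over all genes. The largest were Cd300lf (-3.49, SE 0.32, limma adjusted p = 8.47e-05), a myeloid receptor of which another probe was at 0.54, the integrin gene Itgb3 (2.36), Adgrb1 (-1.21) and the fatty acid translocase gene Cd36 (1.18). In ICC against p53LKO HCC 5 of 20 were called higher and 2 lower, beside 13.1% and 15.3% of all genes, with a median of 0.47. The integrin gene Itgav was higher by 3.08 (SE 0.23, limma adjusted p = 1.28e-05), Megf10 at least 9.54-fold higher against HCC arrays at background, Cd36 lower (-2.70) and Cd300lf higher (2.41). In ICC against p53f/f HCC 5 of 20 were called higher and 1 lower, beside 10.9% and 11.9% of all genes, with Itgav at 3.32, Megf10 at least 12.2-fold higher, Stab2 at -2.03 and Mfge8, the bridge between phosphatidylserine and integrins, at 1.39.

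**Figure D4:**
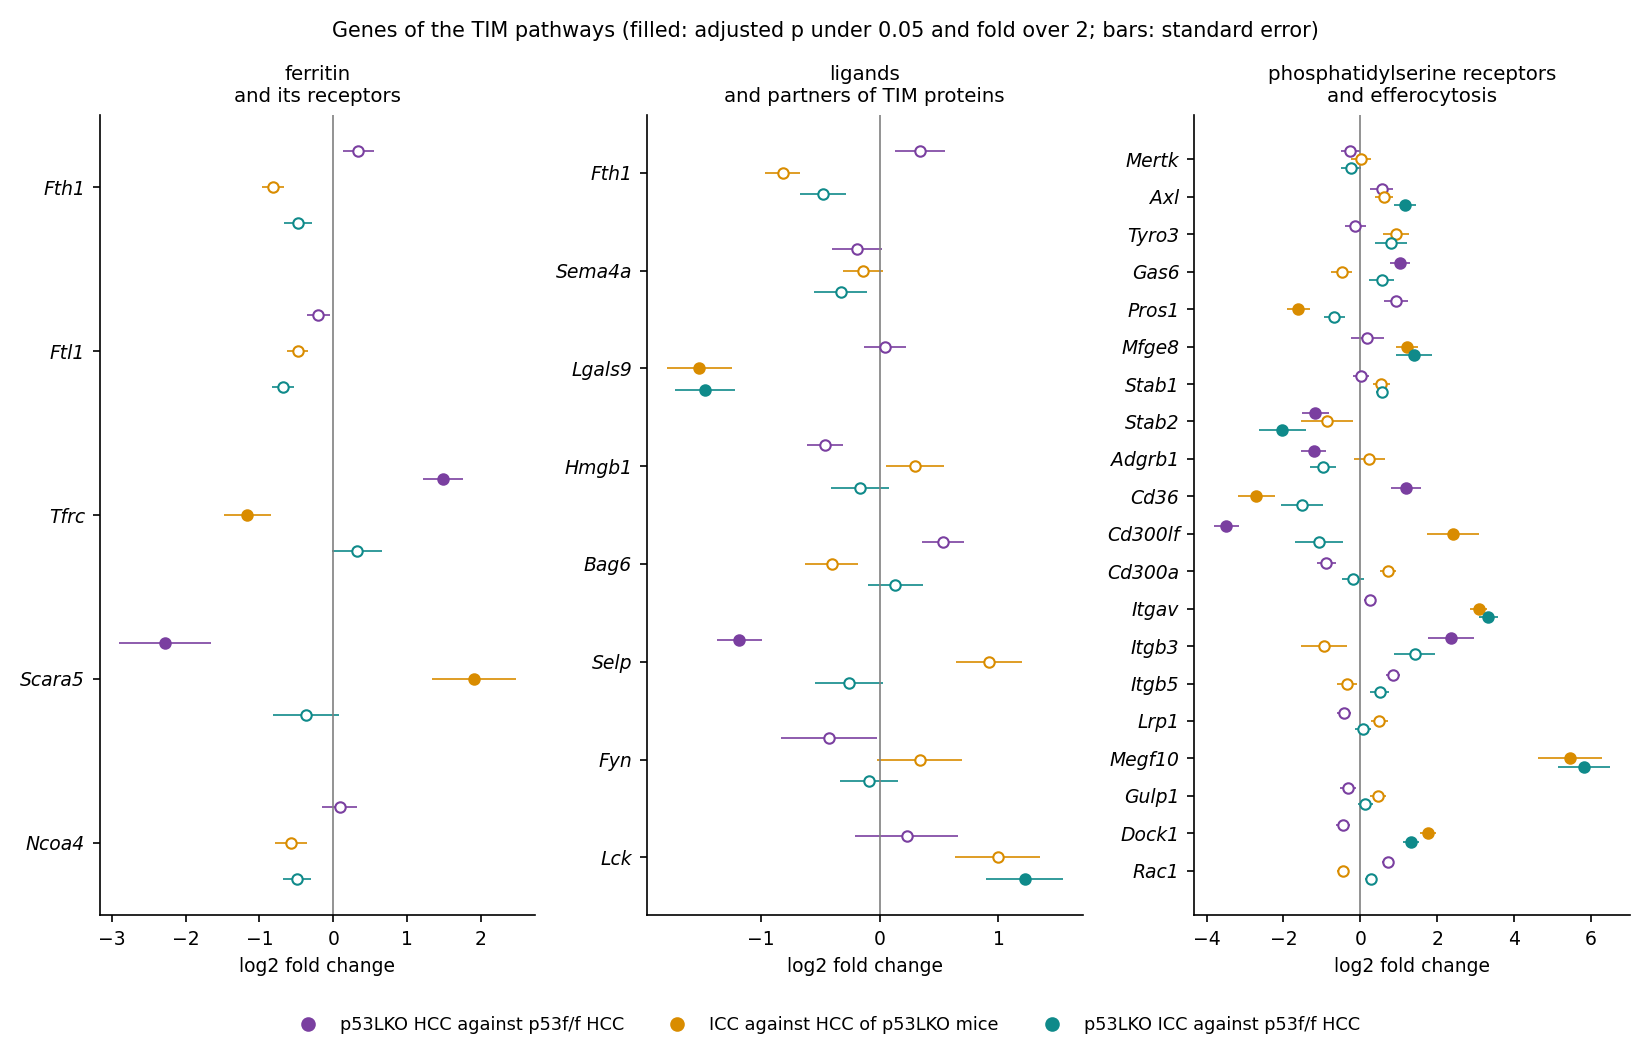
Log2 fold change (horizontal axis) of tested genes of the 3 pathway lists in the 3 comparisons, 1 colour each (bars: SE, 5 arrays per group, filled: adjusted p under 0.05 and fold over 2). Fth1 stays within 1 log2 unit of 0 in each comparison, Scara5 and Tfrc are filled on opposite sides, and the Megf10 points are fitted values against HCC arrays at background.

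The genes around the TIM cluster were read in the same comparisons. Within 500 kb of a TIM probe 14 other genes had 20 probes, of which 10 were tested between the HCC groups. Of these 1 was called higher and 1 lower, beside 3.64% and 16.0% of all probes. The one called lower was Gm12171 (limma adjusted p = 0.0338), which was above background on 3 of 5 p53f/f arrays and 0 of 5 p53LKO arrays. Its p53f/f mean lay below the lowest signal above background on the p53LKO arrays, so no size of its fall can be given. The one called higher is annotated to Usp10 (1.02, limma adjusted p = 0.0239) and placed 40.4 kb away by the files, whereas RefSeq has Usp10 on chromosome 8. Dppa1 had the same counts of arrays above background as Gm12171 (3 and 0), and no size of its difference can be given. Dppa1 did not pass (limma adjusted p = 0.0626). Gm12568 did not pass either, with p53LKO arrays at background. Med7, Fndc9, Cyfip2 and Adam19 differed by between 0.06 and 0.37. In ICC against p53LKO HCC 7 probes were tested, with 2 called higher, Adam19 (1.96) among them, and 1 lower, the Usp10 probe (-1.43), beside 12.9% and 13.4% of all probes. In ICC against p53f/f HCC 10 were tested, with 2 called higher, Adam19 (2.02) among them, and 0 called lower, beside 7.43% and 12.0% of all probes. Sox30, Nipal4, Fam71b, Gm12169 and Sgcd were too dim to test.

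**Figure D5:**
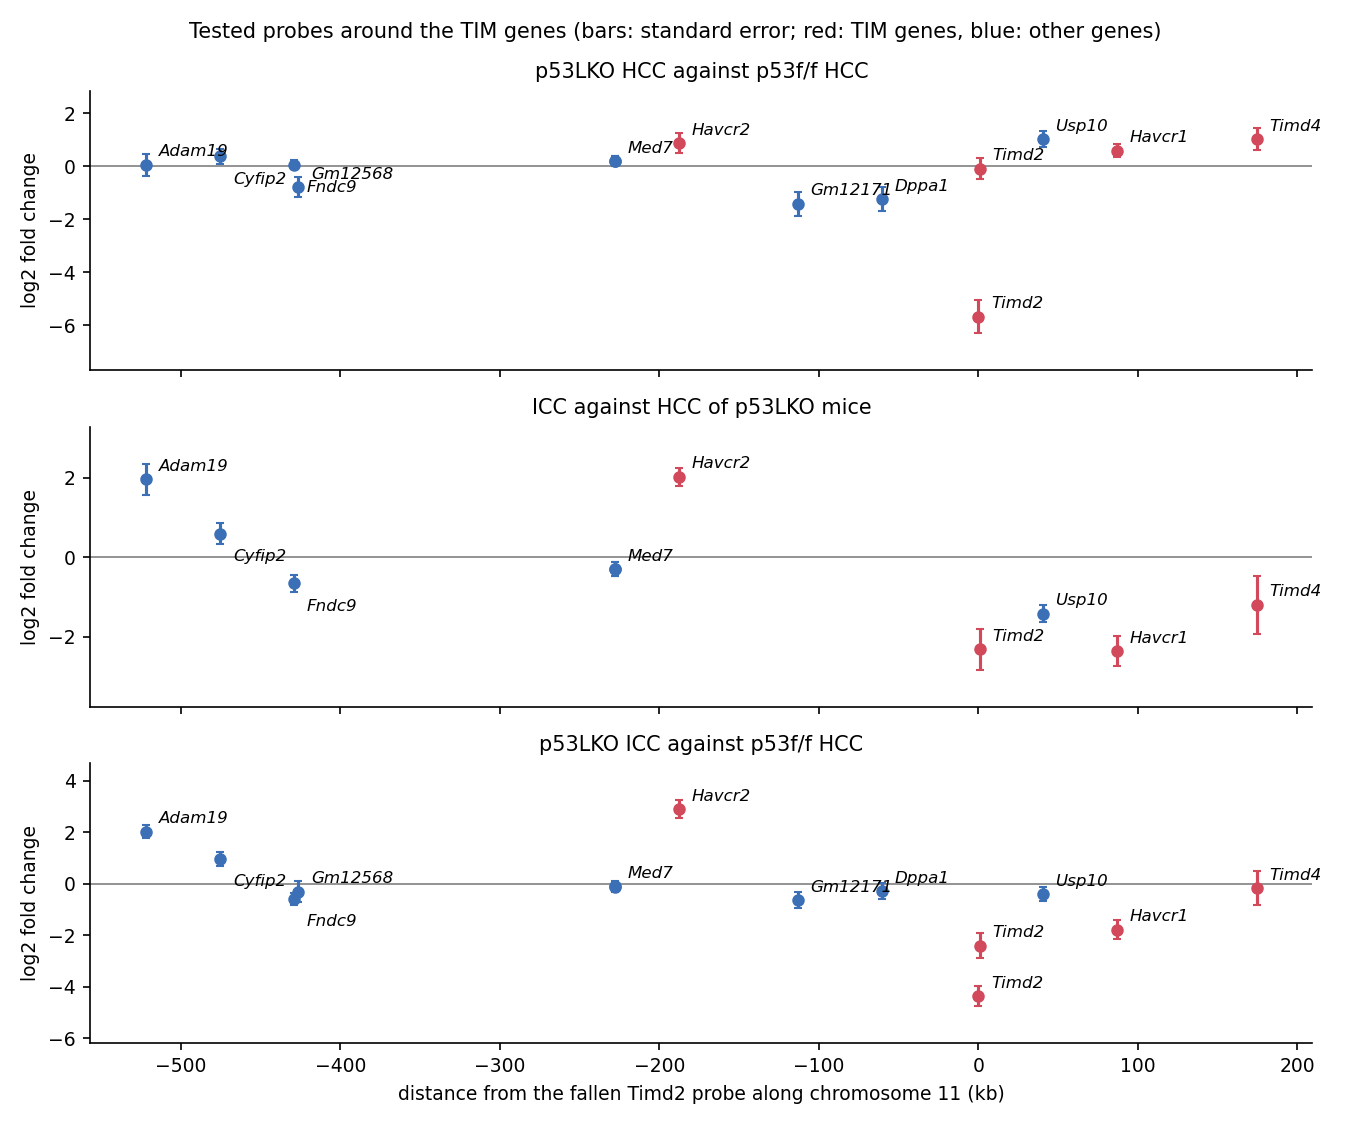
Log2 fold change (vertical axis, bars: SE) of tested probes around the TIM genes by its distance in kb from the Timd2 probe at 3024 (horizontal axis), in the 3 comparisons. Red marks TIM probes and blue other genes, and the points of Gm12171, Dppa1 and Gm12568 are fitted values against arrays at background. In the upper panel the Timd2 probe at 3024 stands at -5.68 and the Timd2 probe 1.027 kb away at -0.09.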

How the data were processed

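Total RNA of whole tumor tissue (RIN above 8) was labelled with 1 dye and hybridised to 15 Agilent arrays. The authors extracted scanner images with Feature Extraction 10.7.3.1, and the deposited intensity per spot is background-subtracted. The deposited value table holds log2 values centred per probe, with column medians of -0.325 to 0.304 for HCC and -0.0305 to 0.344 for ICC. The table matched the scanner values rebuilt in the same way with r of 0.99992 or more, and it was used as an alternative only.

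In R 4.3.3 (data.table version 1.17.8), log2 intensities were averaged over the spots of a probe, without outlier-flagged spots, and the 75th percentile of the array was subtracted. Probes that passed the background call on 3 or more arrays of 1 group were tested with limma 3.58.1 and Benjamini-Hochberg adjustment over all probes tested. Calls required an adjusted p under 0.05 with more than a 2-fold change. Scripts were tested on simulated data. Figures were drawn in Python with matplotlib 3.10.9. Promoter sequences from RefSeq were not used.

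Groups came from the labels. HCC and ICC of 4 mice are paired by the mouse number in the labels. Deviations from the group means correlated between -0.142 and 0.0657 within mice and between -0.263 and 0.283 between mice. A p-value measures the spread between tumors, some of which share a mouse. No array was left out, 0 probes were saturated, the highest correlation between arrays was 0.981, and the number of arrays limits the precision.

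A gene was represented by its brightest probe. Named were all TIM probes, the ferritin and ligand lists, up to 4 called genes with the largest change per other list (phosphatidylserine receptors, epithelial injury, macrophage, T cell, natural killer, dendritic, B cell, biliary, hepatocyte), genes within 500 kb, the 5 or 3 genes most correlated with the brighter probes, and the genes next to Timd2 in the order of fall. C1qa, Adgre1, Clec4f, Vsig4, Cd5l and Marco were named after their values were seen. Members and lists were chosen with earlier results of these data known. Some genes of these lists are not reported here, in the text or in the figures, while the counts over a list include them.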

Additional observations from a re-analysis of the deposited data

How the results depend on the processing

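Under the alternative scalings, filters, blocks and probe choices and with each tumor left out, Havcr2 kept its call in ICC against both HCC groups. With the mean of both probes of a gene, Havcr1 was at 0.022 in ICC against p53LKO HCC (limma adjusted p = 0.966) and at 0.59 in ICC against p53f/f HCC (adjusted p = 0.167), and Timd2 was at -2.88 between the HCC groups, at -0.50 in ICC against p53LKO HCC and at -3.38 in ICC against p53f/f HCC. In the last comparison Havcr1 was at -1.03 with spike-in scaling and -1.38 with the slide as a block. Spike-in scaling moved the median of all probes between the HCC groups from -0.115 to 0.621, and gave 1.32 for Havcr1, 1.61 for Havcr2 and 0.65 for Timd2 at 1997 there. The Timd2 probe at 3024, which is at background outside p53f/f HCC, was at -2.29 between the HCC groups with normexp, and in ICC against p53f/f HCC at -1.85 with normexp, -5.14 with quantile normalization and -3.61 with spike-in scaling.

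For Timd4 in ICC against p53LKO HCC, the replicate block with the mouse as a fixed factor gave -2.06, or -1.45 with the dim TIM values at the floor, and leaving out 1 tumor at a time gave -1.77 (without the ICC of mouse 3977) to -0.73 (without the ICC of mouse 3733). This block changed no other call of a TIM gene. The calls among all probes between the HCC groups numbered 7088, against 12126 with spike-in scaling, 2892 with normexp and 1850 with only probes detected on all arrays compared. In ICC against p53LKO HCC they numbered 8615, against 5614 with normexp and 4333 with that filter, and in ICC against p53f/f HCC 6937, against 3750 with normexp, 3701 with the slide as a block, 3754 with that filter and 19132 without a filter. The causes were not tested. No block for the row was possible in ICC against p53f/f HCC, since each group lay in 1 row.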
